A study of Mus musculus with 4 samples.

Results

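The genes described here encode the machinery that loads, docks, fuses and recovers synaptic vesicles, measured in mouse cerebellar Purkinje cells. They are a fixed set of 43 gene symbols, and a probe set (a group of short probes for 1 transcript) was taken for a gene when the annotation of the array gave it exactly that symbol and no other. All 43 genes were found, on 118 of 45037 probe sets, among 18193 named genes in all. Where a gene had several probe sets, its level was read from the one with the highest mean signal. The cells came from intact male C57BL/6J mice 8 weeks old. The cells were taken out of cerebellar sections with a laser, and their RNA was amplified and hybridized to Affymetrix arrays. There was 1 group of 4 samples, 2 from each of 2 animals, called 1-1, 1-2, 2-1 and 2-2 (animal, then sample); values below follow that order. The labels name no treatment, no transgene and no control group, and do not say whether samples of an animal were separate captures, so p-values measure only the spread between these samples, which may be technical.

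At a synapse, a vesicle fuses when the vesicle SNARE protein VAMP zips together with syntaxin and SNAP-25 on the plasma membrane. Munc13 and RIM proteins prepare (prime) the vesicle at the active zone, complexin binds the assembled SNAREs and couples fusion to calcium, and NSF with its SNAP adaptors takes the used complexes apart. Synapsins, SV2 proteins and the synaptophysin family sit on the vesicle itself, and dynamin, amphiphysin, endophilin and synaptojanin recover its membrane. Purkinje cells release GABA from axon terminals in the cerebellar and vestibular nuclei, and most of these proteins exist as several paralogs that differ between neurons.

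Levels are log2 signals after quantile normalization, given as mean ± SD over 2 animals. A background bound was set on each array as the level that 95% of 88 genes of other organs (liver, skin, gut and the like) did not exceed, at 5.87, 5.69, 5.91 and 5.66 on the log2 scale. "Above background" means above this bound on all 4 arrays. Probe sets differ in how strongly they bind, so levels of different genes, paralogs included, are not ranked against each other. Paralogs are set side by side by their standing against the bound, and a gene below it may still be transcribed.

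Of the 43 genes, 26 (60.5%) lay above background, against 28.1% of all named genes. A further 7 passed the bound on 1 to 3 arrays and 10 on none, against 55.7% of all named genes that passed on none. The genes above background were Snap25, Stx7, Stx12, Vamp1, Vamp2, Vamp3, Vamp4, Unc13c, Rims2, Cplx1, Syn2, Sv2a, Syp, Sypl, Syngr1, Syngr3, Dnm1, Dnm3, Amph, Synj1, Sh3gl2, Pclo, Erc2, Napa, Napb and Napg. In the SNAP-25, syntaxin, Munc13, RIM, complexin, synapsin, SV2, synaptophysin, amphiphysin, bassoon-piccolo and ELKS families some paralogs were above background and others were not, as the plot of levels against the bound shows. The count of 26 fell to 15 of 43, against 18.6% of all named genes, when the median over a gene's probe sets replaced the brightest one, a choice that counts every weak probe set against its gene. The 43 genes carried 118 probe sets, and the 18193 named genes 34945. A gene with more probe sets has more chances to pass on its brightest one, and the part of this in the count was not tested.

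**Figure D1:**
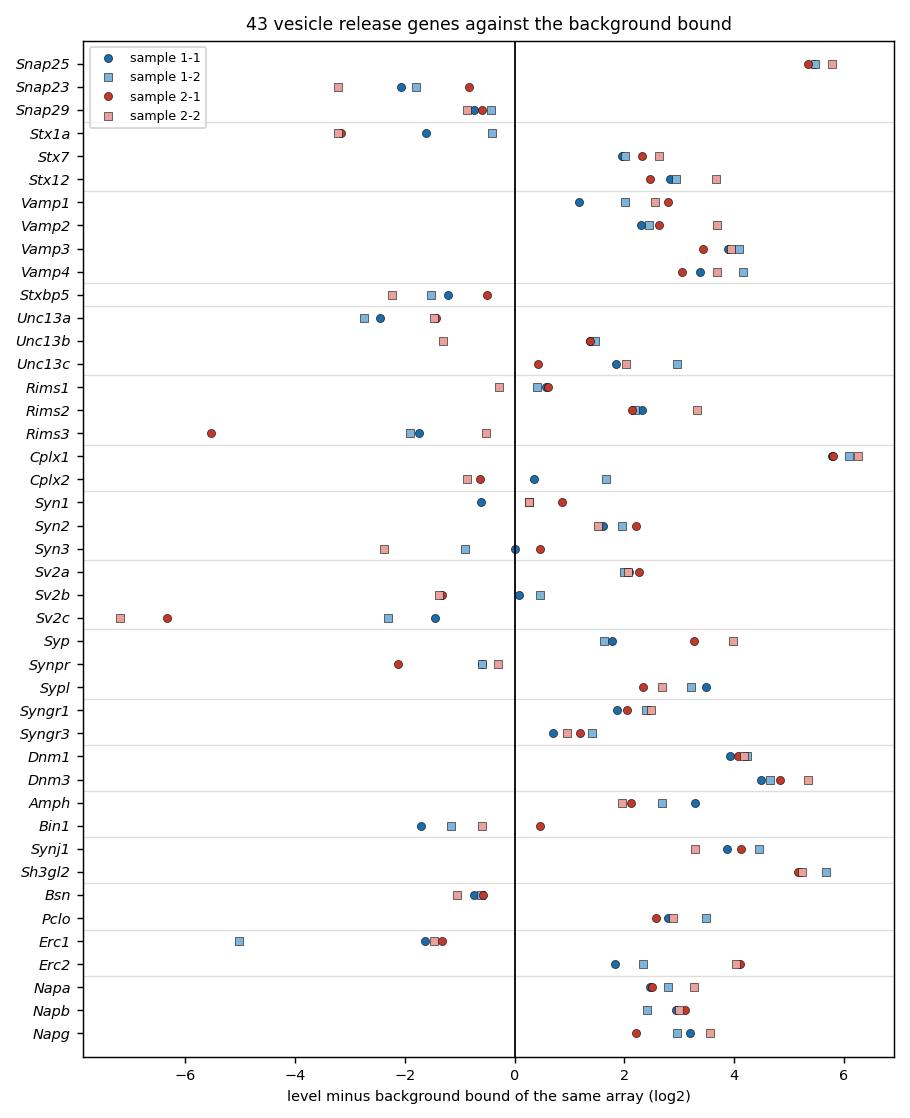
Level of each of the 43 genes minus the background bound of the same array (log2, horizontal axis), with 1 point per sample; blue points are animal 1, red points animal 2, and grey lines divide gene families. All 4 points lie right of 0 for 26 genes and left of it for 10; horizontal positions of different genes are not comparable.

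The promoters of 6 genes on which the results turn are printed as the 250 bases before the annotated start, from RefSeq (GRCm38.p6), 5′ to 3′. Capitals mark the Sp1 box GGGCGG, the cAMP response element TGACGTCA, the TATA box TATAAA, the core CGCATGCGC bound by NRF1, and TTCAGCACC, part of the element bound by the repressor REST, on either strand. Erc2 (chr14:27622157-27622406, plus strand) was the 1 gene called between the animals, and its paralog Erc1 (chr6:119848151-119848400, minus strand) lay below the bound on every array. Syp (chrX:7638330-7638579, plus strand) had the next lowest p of the genes on their brightest probe sets. Cplx1 (chr5:108550028-108550277, minus strand) and Cplx2 (chr13:54302306-54302555, plus strand) are paralogs, the first above the bound on all 4 arrays and the other on 2. Syn1 (chrX:20920919-20921168, minus strand) was the only one of the 35 genes with a window to hold the REST letters.
Erc2: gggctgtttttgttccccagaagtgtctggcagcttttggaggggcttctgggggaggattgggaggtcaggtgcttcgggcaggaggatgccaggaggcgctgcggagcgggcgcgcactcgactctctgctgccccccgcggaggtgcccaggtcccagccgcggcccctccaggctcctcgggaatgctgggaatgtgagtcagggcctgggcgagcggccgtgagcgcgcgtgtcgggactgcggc
Erc1: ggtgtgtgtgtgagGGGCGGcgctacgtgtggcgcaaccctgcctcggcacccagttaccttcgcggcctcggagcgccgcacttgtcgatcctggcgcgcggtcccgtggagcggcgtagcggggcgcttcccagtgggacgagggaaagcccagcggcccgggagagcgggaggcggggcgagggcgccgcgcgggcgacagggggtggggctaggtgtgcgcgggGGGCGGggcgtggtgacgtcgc
Syp: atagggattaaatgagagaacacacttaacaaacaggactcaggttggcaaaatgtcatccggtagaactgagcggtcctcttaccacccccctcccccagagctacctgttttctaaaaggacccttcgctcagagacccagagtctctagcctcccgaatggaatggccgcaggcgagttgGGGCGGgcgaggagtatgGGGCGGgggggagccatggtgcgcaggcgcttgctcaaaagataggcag
Cplx1: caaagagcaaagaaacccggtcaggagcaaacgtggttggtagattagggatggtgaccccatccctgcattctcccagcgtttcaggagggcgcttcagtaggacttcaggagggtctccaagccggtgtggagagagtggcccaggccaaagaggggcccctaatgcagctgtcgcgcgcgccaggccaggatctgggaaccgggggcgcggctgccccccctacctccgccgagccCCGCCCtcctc
Cplx2: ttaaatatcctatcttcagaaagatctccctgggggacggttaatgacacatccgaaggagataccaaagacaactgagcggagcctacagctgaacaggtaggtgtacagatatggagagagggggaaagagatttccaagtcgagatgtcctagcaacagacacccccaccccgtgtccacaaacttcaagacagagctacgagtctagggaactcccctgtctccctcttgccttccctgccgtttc
Syn1: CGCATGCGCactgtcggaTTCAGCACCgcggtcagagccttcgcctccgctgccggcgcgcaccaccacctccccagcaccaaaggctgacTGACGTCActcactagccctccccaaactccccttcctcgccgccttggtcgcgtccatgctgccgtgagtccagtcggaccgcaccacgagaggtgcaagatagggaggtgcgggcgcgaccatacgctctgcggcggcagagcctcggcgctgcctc
Windows were found for 35 of the 43 genes, the first listed where a gene had several; those without were Snap25, Vamp2, Vamp3, Rims2, Syn3, Syngr3, Bin1 and Napg. The Sp1 box occurred in 21 of 35 windows (60.0%), against 32.9% of 27025 windows of all genes. It was in 12 of 20 windows of genes above background and in 9 of 15 of the others. The TATA box letters occurred in 1 window, that of Sv2b, against 13.0% of all windows. The cAMP response element occurred in Sh3gl2 and Syn1, against 1.62% of all windows, and the NRF1 core in Bsn, Stx12, Stxbp5 and Syn1, against 1.49%. The REST letters occurred in 0.285% of all windows. Also searched on both strands, with no capitals, were CCAAT (10 of 35 windows, 28.6%, against 34.5% of all), the E-box CACGTG (3 windows, against 6.05%) and TGACG, which lies within the cAMP response element (7 windows, 20.0%, against 17.9%). GGACAGCGC, another part of the REST element, was in 0 of 35 windows and in 0.326% of all. The median GC content was 62.0% for the 35 windows and 52.0% for all. No capitals appear in the windows of Erc2 and Cplx2, which hold none of the letters marked that way. These matches describe the letters of the windows and were not tested as binding sites.

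Among the SNAREs of the target membrane, Snap25 was above background and its ubiquitous paralogs were not. Snap25, which supplies several helices of the neuronal fusion complex, stood at 11.33, 11.16, 11.26 and 11.45 (mean 11.30 ± 0.08, SD, n = 2 animals). All 4 samples lay close together, and the animals overlapped. Snap23, its counterpart in other tissues, had its 3 probe sets below the bound on every array, the brightest at 3.80, 3.90, 5.08 and 2.43. Snap29, which serves internal membranes, stood just under the bound at 5.14, 5.26, 5.32 and 4.80 and it passed on all 4 arrays once the bound was lowered to the 90th percentile.

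Stx1a, a plasma membrane syntaxin of neurons, stood below the bound on every array, at 4.25, 5.27, 2.74 and 2.43 on 1437390_x_at. Its other probe set was also below the bound, at 2.34, 1.30, 2.56 and 3.07. The endosomal syntaxins Stx7 and Stx12 were above background. Stx7 stood at 7.83, 7.69, 8.23 and 8.30 (mean 8.01 ± 0.36) and Stx12 at 8.70, 8.64, 8.38 and 9.33 (mean 8.76 ± 0.13, SD, n = 2 animals). For Stx7 the animals did not overlap, and for Stx12 they did.

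All 4 vesicle SNARE genes were above background. Vamp1, or synaptobrevin 1, stood at 7.04, 7.70, 8.70 and 8.21 (mean 7.91 ± 0.76), with both samples of animal 2 above both of animal 1. Vamp2, or synaptobrevin 2, the main vesicle SNARE of forebrain synapses, stood at 8.18, 8.13, 8.54 and 9.34 (mean 8.55 ± 0.56, SD, n = 2 animals). Its samples of animal 2 were also the higher ones. Vamp3, or cellubrevin, which serves constitutive and endosomal fusion, stood at 9.77, 9.77, 9.34 and 9.60 on 1437708_x_at. Its probe set 1433916_at passed closer to the bound, at 6.07, 5.96, 6.32 and 5.97. Vamp4, of the trans-Golgi network, stood at 9.25, 9.85, 8.96 and 9.34. Each of these genes had at least 1 further probe set that did not pass. Vamp1 rested on 1421863_at alone, since 1421862_a_at stood at 1.30, -1.10, 0.36 and 4.24, and it passed on 1 array by the median over its probe sets.

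Stxbp5, or tomosyn, which binds syntaxin and SNAP-25 in place of VAMP, was below the bound on all arrays with each of its 3 probe sets (brightest at 4.67, 4.16, 5.40 and 3.42). Napa, Napb and Napg, the alpha, beta and gamma SNAPs that bring NSF to used SNARE complexes, were all above background. Napa stood at 8.34, 8.48, 8.41 and 8.92, Napb at 8.82, 8.11, 9.02 and 8.66, and Napg at 9.07, 8.65, 8.12 and 9.23. On these probe sets the animals overlapped for all 3. On 1450888_at, also above background, Napb stood at 7.54, 7.38, 9.05 and 8.42, without overlap. That difference of 1.27 ± 0.33 (SE, adjusted p = 0.142, limma) did not pass. Nsf itself, from the list of other pathway genes, was above background at a mean of 8.52 ± 0.20 (SD, n = 2 animals).

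Of the Munc13 priming factors, Unc13c, or Munc13-3, known for its cerebellar expression, was the paralog above background. Unc13c stood at 7.72, 8.64, 6.34 and 7.70 (mean 7.60 ± 0.82, SD, n = 2 animals). Sample 2-1 was the lowest, 0.43 above its bound, and under a bound raised to the 99th percentile the gene passed on 3 arrays. Another probe set of Unc13c, 1437319_at, stood at -1.45, 3.04, 5.51 and 5.93, higher in animal 2, and passed in sample 2-2 only. Unc13a, or Munc13-1, the priming factor of most glutamate synapses, was below the bound on every array at 3.42, 2.94, 4.48 and 4.19. Unc13b, or Munc13-2, stood at 7.25, 7.15, 7.28 and 4.35 and so passed on 3 arrays, with sample 2-2 alone below the bound.

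The RIM scaffolds, which tether calcium channels and vesicles at the active zone, divided in the same way. Rims2 was above background at 8.20, 7.88, 8.04 and 8.99 (mean 8.28 ± 0.34, SD, n = 2 animals). Rims1 stood at 6.44, 6.09, 6.52 and 5.36 and passed on every array except that of sample 2-2. Rims3, a short form that lacks most RIM domains, was below the bound throughout, at 4.14, 3.79, 0.36 and 5.14. Of the 5 probe sets of Rims2, 2 were above background and 2 passed on no array.

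The large and the ELKS active zone scaffolds each had 1 gene above background and 1 below. Pclo, or piccolo, stood at 8.68, 9.17, 8.48 and 8.55 (mean 8.72 ± 0.29), while Bsn, or bassoon, its structural relative, stood at 5.13, 5.08, 5.33 and 4.61 and below the bound on all 4 arrays. Erc2, which binds RIM and bassoon at the active zone, stood at 7.70, 8.03, 10.01 and 9.70 (mean 8.86 ± 1.41, SD, n = 2 animals). Both samples of animal 2 were clearly above both of animal 1. Erc1, the more widely expressed ELKS gene, was below the bound with all 4 of its probe sets, the brightest at 4.24, 0.67, 4.58 and 4.19.

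Cplx1, 1 of the complexins that clamp and trigger fusion, stood at 11.65, 11.79, 11.70 and 11.91 (mean 11.76 ± 0.06, SD, n = 2 animals). A second probe set, 1417746_at, stood at 10.56, 10.67, 10.59 and 10.95, and both had their highest value in sample 2-2. The remaining probe set of Cplx1 passed on no array. Cplx2 stood at 6.22, 7.35, 5.28 and 4.79 on 1421477_at and passed the bound on both arrays of animal 1 and on neither of animal 2. Because the level in animal 2 is only bounded, Cplx2 was at least 2.00-fold higher in animal 1 on this probe set and the normalized scale (measured means 6.78 and 5.04 on the log2 scale, adjusted p = 0.233, limma). That difference did not pass the test. Here and below, such a bound sets the mean of the brighter animal against the background bound of the dimmer one. On 1455672_s_at Cplx2 stood at 5.28, 5.89, 5.37 and 5.39, a difference of -0.20, and passed in sample 1-2 only. Its remaining probe set, 1436383_at, passed on no array.

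The synapsins, which hold vesicles in the reserve pool, had 1 gene above background. Syn2 was above background at 7.48, 7.64, 8.11 and 7.19 (mean 7.61 ± 0.06, SD, n = 2 animals) on the brightest of its 6 probe sets. Syn1 had 1 probe set, at 5.26, 5.95, 6.77 and 5.92, and passed on all arrays except that of sample 1-1. Syn3 passed on 2 arrays, 1 of each animal, at 5.88, 4.79, 6.37 and 3.27. For Syn1 and Syn3 the arrays of an animal disagreed in at least 1 animal.

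Of the SV2 glycoproteins, found on vesicles of all transmitter types, Sv2a alone was above background, at 7.96, 7.68, 8.17 and 7.72 (mean 7.88 ± 0.09, SD, n = 2 animals). Sv2b stood at 5.95, 6.14, 4.59 and 4.28, above the bound in animal 1 and below it in animal 2. That makes it at least 1.20-fold higher in animal 1 (measured means 6.05 and 4.44, adjusted p = 0.339, limma), which did not pass. Sv2c, on 1 probe set, was below the bound on every array, at 4.43, 3.39, -0.43 and -1.53.

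In the synaptophysin family of vesicle membrane proteins, Syp and the more widely expressed Sypl were above background and Synpr was not. Syp, or synaptophysin, stood at 7.65, 7.31, 9.18 and 9.65 (mean 8.45 ± 1.37, SD, n = 2 animals), with both samples of animal 2 above both of animal 1. Sypl stood at 9.36, 8.91, 8.24 and 8.34 on 1422881_s_at, and there the animals also did not overlap, with animal 1 above. Synpr, or synaptoporin, stood at 5.27, 5.10, 3.79 and 5.36. The synaptogyrins, relatives of synaptophysin, were both above background. Syngr1 stood at 7.74, 8.08, 7.96 and 8.14, and Syngr3 at 6.58, 7.11, 7.09 and 6.61, close enough to the bound that a 99th percentile bound left it above on 2 arrays.

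Genes of vesicle recovery were above background in 5 of 6 cases. Dnm1, the neuronal dynamin that cuts vesicles from the membrane, stood at 9.81, 9.92, 9.98 and 9.84 (mean 9.89 ± 0.03), and Dnm3 at 10.37, 10.33, 10.74 and 11.00 (mean 10.61 ± 0.37, SD, n = 2 animals). The animals overlapped for Dnm1 and did not for Dnm3. Sh3gl2, or endophilin A1, which bends the vesicle neck and recruits synaptojanin, stood at 11.08, 11.37, 11.08 and 10.90. Synj1, the lipid phosphatase that lets the clathrin coat fall off, stood at 9.75, 10.14, 10.04 and 8.94. Amph, or amphiphysin, which brings dynamin to the vesicle neck, stood at 9.16, 8.38, 8.04 and 7.62, each sample of animal 2 below those of animal 1. Bin1, its widely expressed paralog, stood at 4.17, 4.53, 6.37 and 5.06 and passed in sample 2-1 only.

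**Figure D2:**
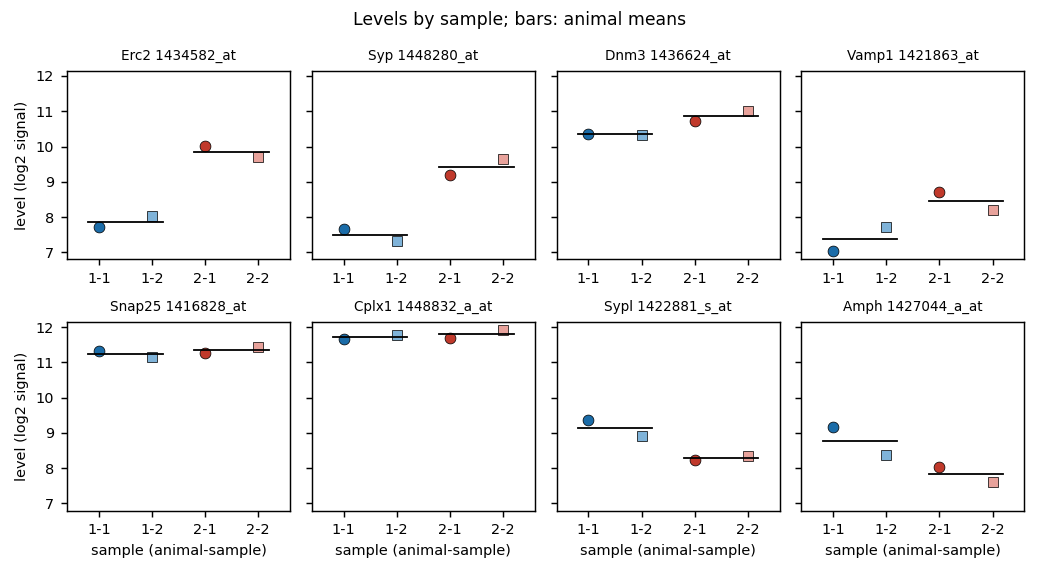
Level (log2 signal, vertical axis) of 8 probe sets in the 4 samples, with a bar at the mean of each animal. Erc2, Syp, Dnm3 and Vamp1 were higher in both samples of animal 2, Sypl and Amph lower, and the samples of Snap25 and Cplx1 overlapped; only Erc2 passed the test between animals.

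The animals were then compared probe set by probe set, to see how reproducible the levels were between mice of the same description. The comparison used limma with a mean-variance trend over the 11002 probe sets that passed the bound on 2 or more arrays, with Benjamini-Hochberg adjustment. Animal 2 exceeded animal 1 in Erc2 by a log2 difference of 1.99 ± 0.26 (SE, 2 samples per animal, adjusted p = 0.0460), on its 1 probe set. Its deposited signals were 170.3, 216.9, 1101.5 and 1067.0. It was 1 of 49 tested probe sets of the 43 genes called higher, and 0 were called lower, against 0.227% of all probe sets called higher and 0.164% called lower. An unadjusted p under 0.05 was reached by 12 of the 49 probe sets (24.5%), 8 higher and 4 lower in animal 2, against 17.6% of all probe sets tested. The call of Erc2 was lost without sample 1-1 (difference 1.83, adjusted p = 0.266) and without sample 1-2 (2.15, adjusted p = 0.215), settings that left 7 calls over all probe sets in place of 43. It was also lost without the variance trend (adjusted p = 0.228) and when dim probe sets were kept in the fit (adjusted p = 0.123). Over all alternatives its adjusted p ran from 0.0127 to 0.266 and its difference from 1.83 to 2.50.

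Other genes had higher values in animal 2 that did not pass. Syp differed by 1.93 ± 0.30 (SE, adjusted p = 0.0659, limma), and it passed when the fit was limited to probe sets that passed on all 4 arrays (adjusted p = 0.0284). For Dnm3, the brightest probe set differed by 0.52 ± 0.14 (adjusted p = 0.162) and 1436875_at by 1.01 ± 0.31 (adjusted p = 0.180). Another probe set of Dnm3, 1438801_at, was below the bound in animal 1 (4.51 and 3.79) and above it in animal 2 (7.78 and 7.81), at least 4.04-fold higher there (adjusted p = 0.0659). All 3 tested probe sets of Dnm3 thus had higher values in animal 2 and none passed. Vamp1 differed by 1.08 ± 0.36 (adjusted p = 0.204) and Vamp2 by 0.79 ± 0.33 (adjusted p = 0.283).

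Among genes with lower values in animal 2, Sypl differed by -0.84 ± 0.27 (SE, adjusted p = 0.190, limma) on 1422881_s_at. A second probe set of Sypl, 1422880_at, stood at 7.75, 7.95, 8.00 and 8.43 and so did not share that direction. Amph differed by -0.94 ± 0.35 (adjusted p = 0.247), Unc13c by -1.16 ± 0.54 on 1455304_at (adjusted p = 0.323) and Unc13b by -1.38 ± 0.90 (adjusted p = 0.471). For Unc13b the animals overlapped, and its difference was -2.85 without sample 2-1 (adjusted p = 0.0188) and 0.09 without sample 2-2 (adjusted p = 0.886). That of Unc13c was -1.84 without sample 2-2 (adjusted p = 0.0428) and -0.48 without sample 2-1 (adjusted p = 0.471). Of the 10 genes with the largest differences either way, Erc1, Unc13a, Stx1a and Sv2c lay below the bound on all arrays and Bin1 on 3, so no fold is given for them.

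Several of the machinery's genes had small estimated differences between the animals on the normalized scale. Cplx1 differed by 0.08 ± 0.10 (SE), Snap25 by 0.11 ± 0.12, Dnm1 by 0.05 ± 0.17 and Syngr3 by 0.01 ± 0.42, with adjusted p from 0.680 to 0.993 (limma). On values as deposited the same genes differed by 0.49, 0.54, 0.52 and 0.60, where the median of all named genes was 0.43. The second probe set of Snap25, 1447763_at, stood at 10.30, 10.08, 9.47 and 9.32, a difference of -0.80 ± 0.18 (adjusted p = 0.120) that the brightest probe set did not show. The median difference over the 43 genes was -0.01, with 21 higher and 22 lower in animal 2; quantile normalization holds the median of all named genes near 0, and it was also -0.01. Of the 26 genes above background, the animals did not overlap for 11 (42.3%), 6 with animal 2 above, against 50.4% of all genes above background.

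**Figure D3:**
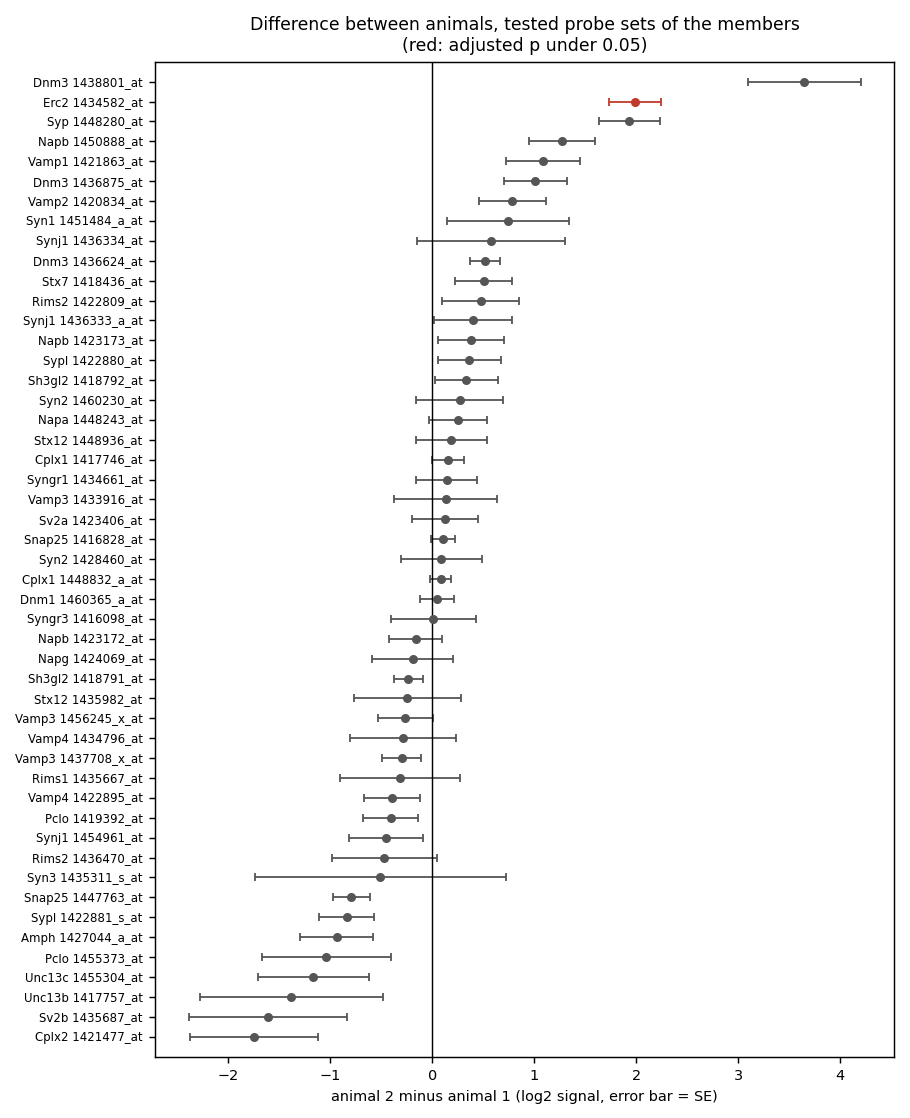
Difference between animals (animal 2 minus animal 1, log2 signal, with SE bars) for the 49 tested probe sets of the 43 genes, ordered by size and named by gene and probe set. Erc2, in red, is the only one with an adjusted p under 0.05; the plotted values of 1438801_at of Dnm3, of Cplx2 and of Sv2b use measured levels below the bound in one animal.

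Scaling bore on the small differences. On values as deposited, the median difference of all named genes was 0.43, and with arrays centred on their medians 0.12. As deposited, the median of the 43 genes was 0.35, and 7 of 48 tested probe sets of these genes (14.6%) were called higher and 0 lower (limma), against 5.37% and 0.0819% of all probe sets. These were Erc2, Syp, Vamp1, 1450888_at of Napb and all 3 tested probe sets of Dnm3. A shift of all genes alike turns small negative differences positive, so the direction is not settled for 12 of the 49 tested probe sets, among them the brightest ones of Vamp3, Vamp4, Rims1, Synj1, Sh3gl2, Pclo and Napg. On their brightest probe sets, the signs of Erc2, Syp, Dnm3, Vamp1, Vamp2, Sypl (1422881_s_at), Amph, Unc13c and Cplx2 held under each.

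The spread of the machinery was compared within and between animals. Over the 26 genes above background, the median absolute difference (log2) was 0.32 for samples 1-1 and 1-2, and 0.40 for 2-1 and 2-2. The 4 pairs from different animals ranged from 0.34 (1-1 and 2-1) to 0.56 (1-2 and 2-2). Averaged over pairs this gave 0.36 within an animal and 0.42 between animals, 0.06 apart. All 7777 probe sets above background gave 0.29 and 0.41, or 0.12 apart. For the 26 genes this gap was -0.05 without sample 1-2, 0.13 without sample 2-1 or with arrays centred on their medians, and 0.25 on values as deposited. With 4 samples in pairs, no exact test can reach p = 0.05, the smallest two-sided value being 0.333.

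The 43 genes carried 118 probe sets, and the probe sets of a gene often stood apart. Of the 22 genes above background with several probe sets, 18 had at least 1 that passed on no array, and 12 had 2 or more above background. Napb is an example: 3 of its 6 probe sets were above background, at mean levels from 8.10 to 8.65, and the other 3 passed on no array. For Synj1, 3 of 4 probe sets were above background, with samples in different orders: 1454961_at was lowest in sample 2-2 (8.94) and 1436334_at highest there (8.26). Stx7, Sv2a, Amph and Erc2 were above background on the only probe set they had, so no second reading was at hand for the 1 gene called between animals.

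**Figure D4:**
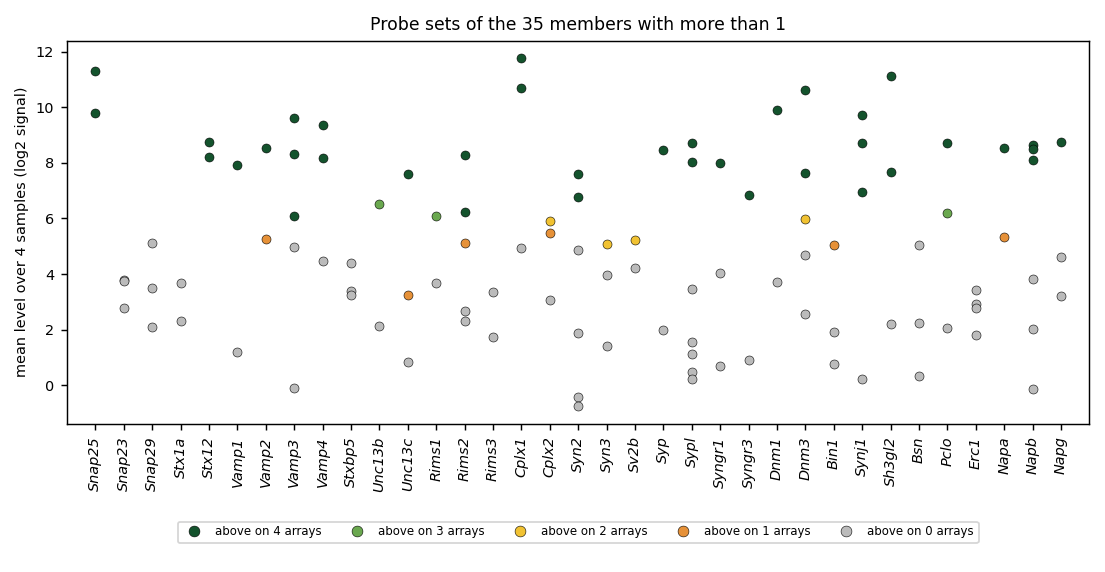
Mean level over the 4 samples (log2 signal, vertical axis) of every probe set of the 35 genes with more than 1, coloured by the number of arrays on which it passed the bound. For Snap25 and Stx12 every probe set was above background; 18 genes above background had a probe set in grey, above the bound on no array.

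Other genes of the same pathway were taken from a list of 97, of which 89 were measured. Above background were 42 (47.2%), and 32 (36.0%) passed on no array. The genes named from it are those whose probe sets gave the highest signals, which orders no transcripts. Of the SNARE and related genes 9 of 21 were above background, among them Snap47, a relative of Snap25 (12.77 ± 0.24), the endosomal SNARE gene Vti1b (10.83 ± 0.31) and Vamp7 (10.36 ± 0.46, SD, n = 2 animals). The levels of Snap47 came from 1438176_x_at, and its other probe set was at 8.95. Stx2, Stxbp2 and Stxbp6 were among the 6 that passed on no array. Of the priming and active zone genes 13 of 31 were above background. Among them were Rab3a, the vesicle GTPase that binds RIM, at 12.51 ± 0.11 (8.51 on its other probe set), the dense-core vesicle priming factor Cadps at 9.77, 9.93, 10.12 and 10.17 and the neurexin gene Nrxn3 at 9.97 ± 0.13. Apba1, Apba2 and the N-type calcium channel gene Cacna1b were among 13 that passed on no array.

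Of vesicle proteins and chaperones 7 of 13 were above background, including Slc32a1, the vesicular transporter of GABA and glycine, at 10.64, 10.80, 11.20 and 11.20 (mean 10.96 ± 0.34, SD, n = 2 animals). The other probe sets of Slc32a1, at 3.64, 3.40 and 2.98, passed on no array. Dnajc5, the cysteine string protein that chaperones SNAP-25, stood at 10.74 ± 0.42 and Dnajc6, or auxilin, which uncoats clathrin, at 9.81 ± 0.12. The other probe sets of Dnajc6 passed on no array. Those of Dnajc5 were at 7.84 and 6.69, above the bound on 4 and 3 arrays, and at 3.17 and 2.10, above it on none. Scamp2, Sncg and Svop passed on no array. Of endocytosis genes 13 of 24 were above background, including the uncoating chaperone Hspa8 (13.49 ± 0.02), the clathrin light chain Clta (11.22 ± 0.25) and Eps15 (9.86 ± 0.05). The value of Hspa8 came from 1455789_x_at, and its other probe sets were at 10.71, 9.89 and 3.92, the last above the bound on no array. The other probe sets of Clta were at 6.95, above background, and at 3.87, above the bound on no array. Ap2a1, Fcho1 and Fcho2 passed on no array. Between the animals 0 of the 54 tested genes were called (limma), against 0.302% of all named genes tested, and 16 (29.6%) had an unadjusted p under 0.05, against 17.3%.

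Markers of the captured cells and of their neighbours were read in the same samples. All 18 measured Purkinje cell markers were above background, among them Calb1, Pcp4 and Car8, against 28.1% of all named genes. So were 15 of 19 Bergmann glia and astrocyte genes (78.9%), among them Gja1, Hopx and Timp4. The share was 5 of 18 granule cell genes (27.8%), with Zic1, Kcnk1 and Gabra6, and 3 of 12 interneuron genes (25.0%), which were Lgi2, Prkcd and Slc6a9. It was 3 of 14 oligodendrocyte genes (21.4%), which were Cnp, Mbp and Ugt8a. The granule share was about that of all named genes, and the interneuron and oligodendrocyte shares were below it. No listed marker had a level of exactly 0. Levels are log2 signals, on which 0 is not absence, so this does not show that each was detected. Passing on no array were Slc17a7, Pax6, Fat2, Zic2 and Grin2c of the granule list and Hes5 and Slc6a11 of the glial list. The same held for Tfap2b, Gjd2, Kit, Pax8, Grm2, Slc6a5 and Sst of the interneuron list. It held for Mal, Opalin, Fa2h, Sox10, Mag, Cldn11, Aspa, Ermn, Mog and Olig2 of the oligodendrocyte list. The summed normalized signal of the granule genes was 5372 and 6304 in animal 1 and 2960 and 3256 in animal 2. That of the Bergmann glia and astrocyte genes was 15360 and 15025 against 13162 and 11803, and that of the Purkinje genes 86215 and 86910 against 93865 and 92821. The interneuron sums ran from 575 to 913, and the oligodendrocyte sums from 3209 to 5189, also with lower values in animal 2. In the granule list 15 of 18 genes were lower in animal 2, and Zic1 was called lower (adjusted p = 0.0476, limma). Lower too were 11 of 14 oligodendrocyte, 7 of 12 interneuron and 11 of 19 glial genes. Of the 18 Purkinje genes 10 were higher and 7 lower on their brightest probe sets, and Pcp2 was called higher (adjusted p = 0.0387, limma). Over all named genes tested, 0.302% were called. Calb1 stood at 13.68 on all 4 arrays after quantile normalization, from deposited signals of 10986.8, 11215.2, 15006.5 and 16040.7. Its difference of 0 there does not compare the animals. Another probe set of Calb1 was called lower in animal 2, by -0.88 (adjusted p = 0.0349, limma), so the calls among Purkinje genes went both ways. On their brightest probe sets, Cplx2, Sv2b, Unc13c and Amph also had lower values in animal 2, and Erc2, Syp, Dnm3, Vamp1 and Vamp2 higher ones. For Unc13c another probe set, 1437319_at, had higher values in animal 2. The part of neighbouring cells in these values was not tested, and fewer cells of a type and less RNA per cell cannot be told apart.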

How the data were processed

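Expression was measured on 4 arrays of laser-captured Purkinje cells. The deposited table gives a signal intensity, not logged, for each probe set of each array. The submitters' processing notes name GCOS, the array maker's software. Its version, its scaling and any calls of presence were not stated in the labels or file headers. The table held 45101 probe sets, of which 64 were controls and were left out. It held 0 columns of other samples.

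The platform annotation named 34945 probe sets with 1 symbol, 932 with several and 9160 with none, and the last 2 kinds stayed in the fit unnamed. All 43 symbols matched RefSeq by gene identifier. Signals under 0.1 were set to 0.1 before log2 was taken. Trimmed means of the arrays (2% off each end, tolerance 5%) differed by 46.6% relative to their mean, and quantile normalization was therefore applied. The bound came from 88 measured genes of a list of 97, of which Krt1, Krt10 and Tff1 passed it on all 4 arrays. The animals were compared with lmFit and eBayes in limma 3.58.1 (R 4.3.3), on 2 residual degrees of freedom, at a false discovery rate of 0.05. The steps were tested on simulated data.

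The genes and lists were chosen with earlier results of these data known. Of the 10 genes with the largest differences between animals, 5 were taken in each direction. In each group of the other pathway genes the 3 highest means and up to 3 genes below the bound were named; of each marker list, the 3 highest and those below the bound. Alternatives were other bounds, scalings, an offset of 16, probe set choices, filters, no variance trend and each sample left out. The number of arrays limits the precision, and scan batches were not analysed here.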

Additional observations from a re-analysis of the deposited data

Results flagged for a closer look

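In 3 of the 43 genes 1 sample lay far from the other 3, by a rule that chance alone meets in about 1 of 20 groups. Unc13b stood at 4.35 in sample 2-2, with the nearest other sample at 7.15, and without sample 2-2 it was above the bound on all 3 remaining arrays. Synpr stood at 3.79 in sample 2-1, with the nearest at 5.10. Erc1 stood at 0.67 in sample 1-2, with the nearest at 4.19. Synpr and Erc1 lay below the background bound on every array. No cause was tested.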

How the results depend on the processing

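The count of 26 genes above background stood against 28.1% of all named genes. It was 24 with the bound at the 99th percentile, against 20.2%, and 30 at the 90th percentile, against 37.6%. Above the bound on at least 2 arrays were 32, against 38.2%. With a sample left out the count ran from 26 to 28, against 28.6% to 30.6%. The median over probe sets gave 15, against 18.6%, and the remaining settings 26, against 25.2% to 28.1%. Standing against the bound was kept in 453 of 473 combinations of gene and setting, though 16 of the 43 genes changed it under at least 1 setting, and the level stayed within the SD over animals in 310 of 387.

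Between the animals, 1 probe set of these genes was called higher. The count was 0 (limma) with no filter or without the trend. An unadjusted p under 0.05 was reached by 19 of 118 with no filter, against 4105 of 45037 over all probe sets. Without the trend it was reached by 10 of 49, against 1685 of 11002. The count of calls was 7 of 48 on values as deposited, 3 of 48 with arrays centred on their medians and 2 of 48 with an offset of 16. Under a filter for passing on all arrays it was 2 of 41. With a sample left out it ran from 0 to 5 higher and from 0 to 3 lower. Over all 11002 tested probe sets there were 43 calls. As deposited there were 599 of 10990, centred 96 of 10990 and with the offset 55 of 10994. The calls were 183 of 7777 with the strict filter, 5 of 45037 with no filter and 0 of 11002 without the trend. They ran from 7 without sample 1-1 or 1-2 to 918 without 2-1 and 1101 without 2-2. The lone sample is then assumed to vary like the pair of the other animal, and the pairs differed in spread; no other cause was tested. The median difference ran from -0.10 to 0.35, and the gap between the spreads from -0.05 to 0.25. No paired analysis was possible because there was 1 group, and sample numbers of different animals mark no shared source.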
